A study of Canis lupus familiaris with 32 samples.

Results

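NCOR1 and NR3C1 are 2 of the 5246 genes that carry a symbol on a canine cDNA array, and they are represented by 5 of its 22176 probes, 3 for NCOR1 and 2 for NR3C1. Their probes were taken by the gene symbol of the platform annotation. The genes were singled out with measurements of these same arrays in view: the study had picked NCOR1 for its difference between survival groups, and the values of both genes across tumors were known. The difference between survival groups is therefore given for these 5 probes as a description without a test.

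Each array held 1 primary osteosarcoma, a malignant bone tumor, from 1 dog that had received no therapy before the tumor was taken. The 16 tumors of short survivors (SS, dogs that lived less than 6 months) and the 16 tumors of long survivors (LS, dogs that lived at least 6 months) were each hybridized against the same reference, a pool made of all 32 tumors. The tumor carried the dye Cy5 and the pool Cy3 on 8 SS and 8 LS arrays, and the dyes were swapped on the other 8 SS and 8 LS arrays. A value is the log2 ratio of tumor over pool, so 0 is the level of the pool. The error of a comparison is the spread between arrays, each of a different dog. In the SS to LS differences, fitted without a covariate, this error also holds the dye.

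NCOR1 is a corepressor. It binds nuclear receptors that carry no ligand and brings the histone deacetylase HDAC3 to their target genes, which keeps transcription there low. NR3C1 encodes the glucocorticoid receptor, which HSP90 and its cochaperones hold in the cytoplasm until cortisol binds, after which it enters the nucleus and activates or represses genes. Glucocorticoid signaling is known to restrain osteoblasts in bone.

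Array medians lay between -0.03 and 0.02, and the SD across probes lay between 0.474 and 0.762. The orientation of the dyes moved many probes: the mean of a probe over the Cy5 tumors and its mean over the Cy3 tumors correlated at r = -0.658 across probes. Between arrays of the same orientation the lowest correlation was 0.0237 for Cy5 and 0.00256 for Cy3. Because both channels hold osteosarcoma RNA, absolute levels of bone markers could not be read from these ratios, and the labeled tissue was not checked by them. In bulk tissue, fewer cells of a type and less RNA per cell cannot be told apart.

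Of the NCOR1 probes, probe 13277 separated the survival groups most. Its log2 ratio was -0.85 at the lowest, 0.15 at the median and 1.20 at the highest in SS tumors, against -1.30, -0.38 and 0.05 in LS tumors. The groups overlapped, but 8 of 16 SS tumors lay above every LS tumor and only 1 LS tumor lay above the pool. The mean was 0.21 ± 0.64 in SS and -0.49 ± 0.38 in LS (SD, n = 16 each), a difference of 0.69 (SE 0.18, 95% interval 0.32 to 1.06), which is 1.62-fold. Among all 22176 probes 0.577% had a larger difference in this direction, and the median difference of all probes was 0.00 with an SD of 0.215.

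The other NCOR1 probes did not share this difference. Probe 11044 ranged from -0.81 through a median of 0.00 to 0.42 in SS tumors and from -0.50 through 0.08 to 0.51 in LS tumors, with a difference of 0.01 (SE 0.11, 95% interval -0.21 to 0.22). Probe 15421 ranged from -0.42 through 0.03 to 0.61 in SS tumors and from -0.44 through -0.02 to 0.31 in LS tumors, with a difference of 0.07 (SE 0.08, 95% interval -0.10 to 0.24). Both intervals end below the lower bound of probe 13277. Whether the 3 probes detect the same NCOR1 transcripts was not tested.

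For NR3C1, probe 3922 ranged from -0.58 through a median of 0.24 to 0.88 in SS tumors and from -0.55 through -0.17 to 0.11 in LS tumors. Here 9 of 16 SS tumors lay above every LS tumor, while the lower SS tumors overlapped the LS range. The mean was 0.15 ± 0.53 in SS and -0.20 ± 0.21 in LS (SD, n = 16 each), a difference of 0.35 (SE 0.14, 95% interval 0.06 to 0.64) or 1.27-fold, and 3.43% of all probes had a larger one. The second NR3C1 probe, 15797, ranged from -0.41 through 0.12 to 0.70 in SS tumors and from -0.76 through 0.07 to 0.57 in LS tumors. Its groups overlapped over nearly their whole range, with a difference of 0.15 (SE 0.12, 95% interval -0.09 to 0.40). With the orientation of the dyes as a covariate its SE was 0.08 and its 95% interval -0.02 to 0.32. The SEs of the other probes of both genes changed less.

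**Figure D1:**
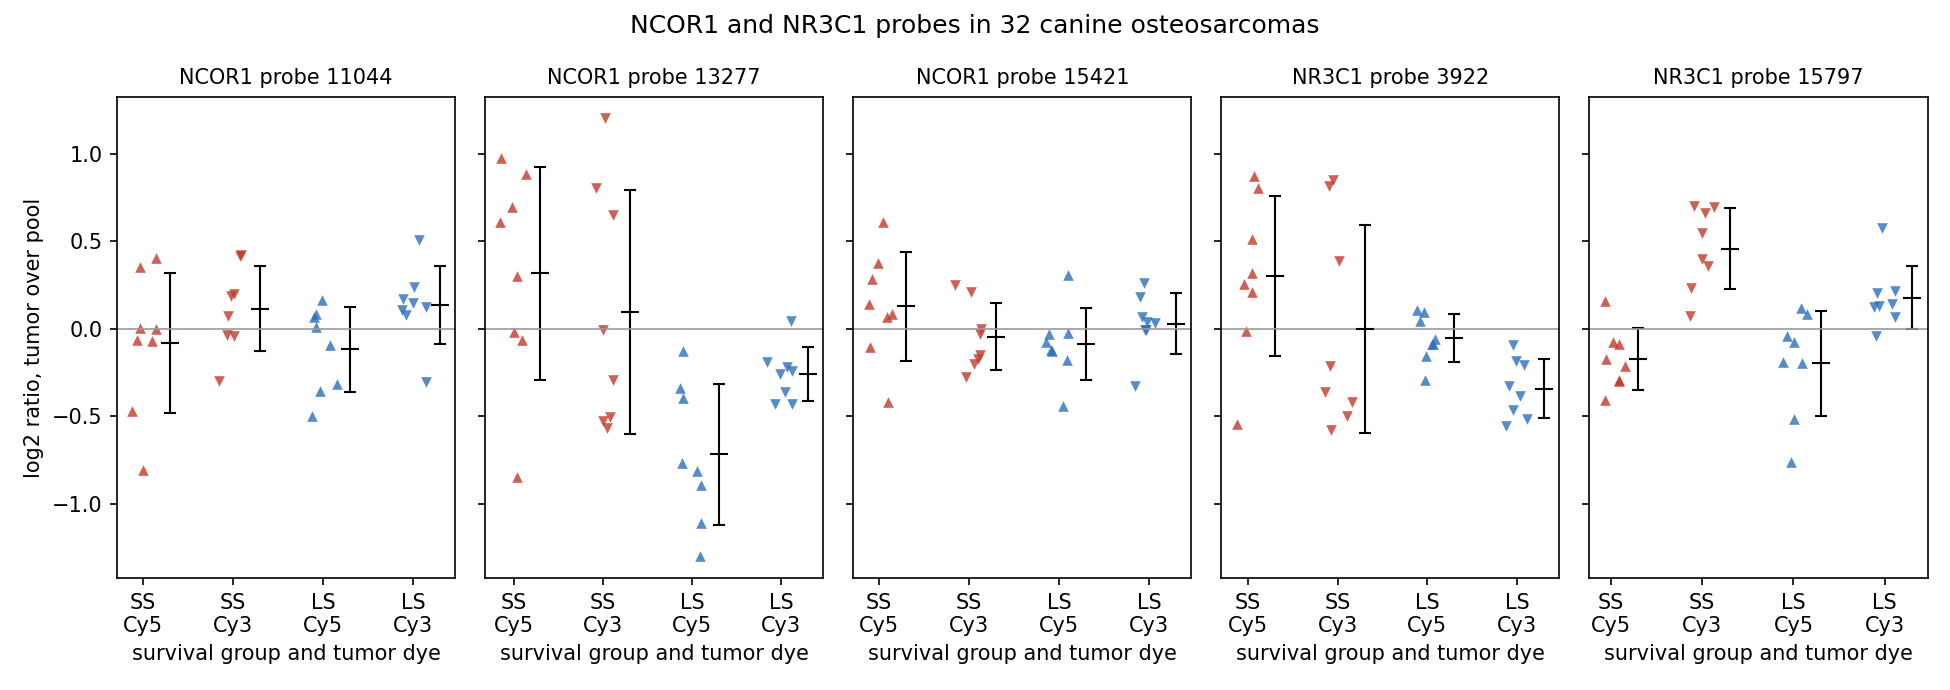
Log2 ratio of tumor over pool for each probe, with 1 point per tumor, split by survival group and tumor dye (n = 8 in each column), and the mean ± SD in black. The SS tumors of NCOR1 probe 13277 reach 1.20 while the LS tumors stop at 0.05, and NR3C1 probe 15797 follows the dye, with means of -0.19 for Cy5 and 0.32 for Cy3 tumors.

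The SS tumors that stood high were nearly the same at 1 probe of each gene. All 8 SS tumors above every LS tumor at NCOR1 probe 13277, which were tumors 3, 4, 5, 7, 8, 10, 11 and 12, were also above every LS tumor at NR3C1 probe 3922, where tumor 2 joined them. At NCOR1 probe 13277 these 8 lay between 0.30 and 1.20, and the other 8 SS tumors lay between -0.85 and -0.01. At NR3C1 probe 3922 the 9 high tumors lay between 0.21 and 0.88 and the other 7 SS tumors between -0.58 and -0.01. Of the 8 shared tumors 5 carried Cy5 and 3 carried Cy3. The SS tumors were thus more spread out than the LS tumors at both probes, as their SDs above show. The other probes of the genes did not share this pattern in full, and NCOR1 probe 15421 shared it in part. Of the 8 shared tumors, 4 lay above the pool at NCOR1 probe 11044, 6 at probe 15421 and 3 at NR3C1 probe 15797. Of all 16 SS tumors, 8, 8 and 9 did so in the same order. Above every LS tumor were 0, 2 and 3 SS tumors at these probes.

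The orientation of the dyes is a technical batch that held both survival groups. Within it, NCOR1 probe 13277 differed between SS and LS by 1.03 among Cy5 tumors and by 0.35 among Cy3 tumors. NR3C1 probe 3922 differed by 0.36 and 0.34 in the same order. At NR3C1 probe 15797 the differences were 0.02 among Cy5 tumors and 0.28 among Cy3 tumors, at NCOR1 probe 11044 they were 0.04 and -0.02, and at NCOR1 probe 15421 they were 0.22 and -0.08. The sign was the same in both orientations at NCOR1 probe 13277 and both NR3C1 probes, and opposite at NCOR1 probes 11044 and 15421. NCOR1 probe 13277 and NR3C1 probe 3922 stood out by a difference that joins both orientations. Their shared sign is therefore no independent evidence.

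The gap between the orientations was itself tested. The interaction for NCOR1 probe 13277 was 0.68 (SE 0.35, limma adjusted p = 0.277), and the adjusted p of the other probes was 0.314 for NCOR1 probe 15421, 0.394 for NR3C1 probe 15797, 0.916 for NCOR1 probe 11044 and 0.982 for NR3C1 probe 3922. Limma called 0 of the 5 probes at an adjusted p under 0.10, and none was below an unadjusted 0.05, against 10.8% of all probes called.

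NR3C1 probe 15797 differed more between the dyes than between the survival groups. It averaged -0.19 ± 0.24 in Cy5 tumors and 0.32 ± 0.25 in Cy3 tumors (SD, n = 16 each), a Cy5 minus Cy3 difference of -0.50 (SE 0.08, limma adjusted p = 4.34e-06). Above the pool were 3 of 16 Cy5 tumors and 15 of 16 Cy3 tumors. NR3C1 probe 3922 had a dye difference of the opposite sign, 0.30 (SE 0.13, limma adjusted p = 0.0543). NCOR1 probe 11044 differed by -0.22 (SE 0.10, limma adjusted p = 0.0509). The other NCOR1 probes did not pass the threshold of 0.10, with -0.12 for probe 13277 (limma adjusted p = 0.598) and 0.03 for probe 15421 (limma adjusted p = 0.781). That 3 of 5 probes passed is close to the 64.4% of all probes that did. What differed at these 3 probes was the measured ratio, between arrays with the tumor in Cy5 and those with it in Cy3. Each tumor was measured in 1 orientation only.

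How the probes moved together across tumors was measured on values centered within each survival group and orientation. This removes the mean differences between SS and LS and between the dyes. The split among SS tumors, between the 8 that stood high at both leading probes and the rest, stays in the values. The 10 pairs of probes were tested with 100000 two-sided permutations within the 4 combinations of 8 tumors, adjusted over the 10 pairs. NCOR1 probe 13277 and NR3C1 probe 3922 had r = 0.754 (permutation p = 0.00021, adjusted p = 0.00105) and Spearman rho = 0.673 (permutation p = 0.00055, adjusted p = 0.00275) over 32 tumors. Without tumors 1 and 11, the 2 farthest from the median of NCOR1 probe 13277, r was 0.685 (permutation adjusted p = 0.0119). Since this pair was noticed on these arrays, its r is no independent evidence.

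The relation between NCOR1 probe 13277 and NR3C1 probe 3922 was measured among SS tumors and not detectable among LS tumors. Among the 16 SS tumors r was 0.862 (permutation adjusted p = 0.00095) and among the 16 LS tumors it was 0.03 (r = 0.0312, permutation adjusted p = 0.934). The pair was noticed on these tumors and both probes stood high in the same SS tumors, so the SS value is no independent evidence. It was 0.825 in SS Cy5, 0.890 in SS Cy3, -0.03 in LS Cy5 and 0.171 in LS Cy3 tumors (n = 8 each). Both probes spanned a narrower range in LS than in SS tumors, and the difference between the 2 coefficients was not tested. In the 16 Cy5 tumors r was 0.655 (permutation adjusted p = 0.0598), but rho was 0.279 (permutation adjusted p = 0.51). In the 16 Cy3 tumors r was 0.846 (permutation adjusted p = 0.0461) and rho was 0.865 (permutation adjusted p = 0.0115).

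**Figure D2:**
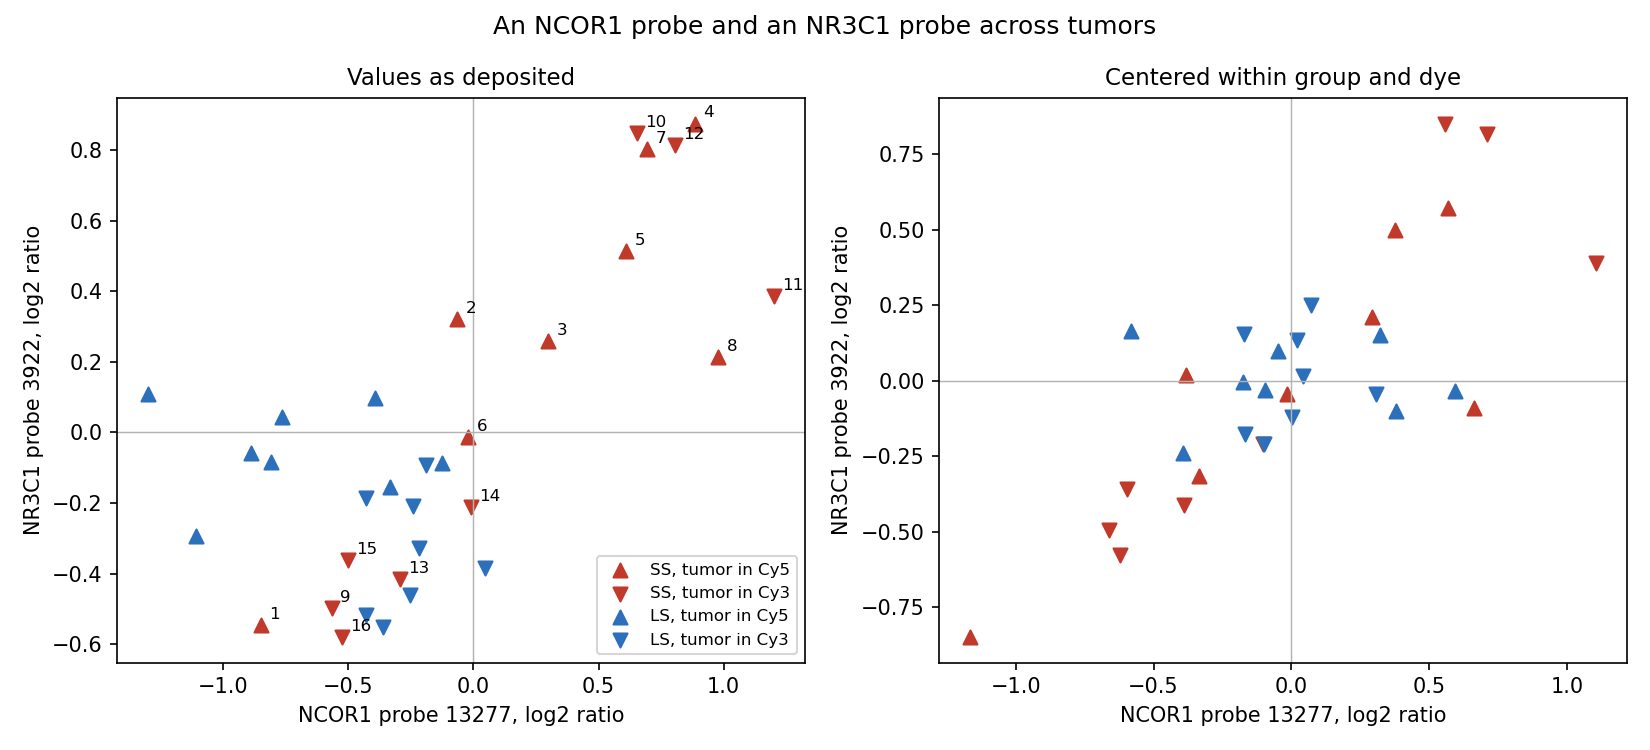
NCOR1 probe 13277 against NR3C1 probe 3922, each in log2 ratio of tumor over pool, with 1 point per tumor; the left panel shows the values as deposited with the SS tumors numbered, and the right panel shows them centered within survival group and tumor dye. The 8 SS tumors at the upper right lie above every LS tumor on both axes, and the LS tumors form a narrow band with r = 0.0312 after centering.

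Probes of the same gene ranged from a close relation to none that was detectable. NCOR1 probes 11044 and 15421 had the highest correlation of all pairs, r = 0.852 (permutation p = 1e-05, the smallest that 100000 permutations can give, adjusted p = 0.0001) with rho = 0.721 (permutation p = 6e-05, adjusted p = 0.0006). It was 0.962 in SS Cy5, 0.767 in SS Cy3, 0.643 in LS Cy5 and 0.873 in LS Cy3 tumors, and 0.778 without tumors 1 and 4. Among LS tumors r was 0.742 (permutation adjusted p = 0.0193), but rho was 0.459 (permutation adjusted p = 0.44). Each was the probe most like the other among 22170 probes.

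NCOR1 probe 13277 was less close to the other NCOR1 probes than they were to each other. With probe 15421 it had r = 0.566 (permutation p = 0.00235, adjusted p = 0.00783) and rho = 0.481 (permutation p = 0.0136, adjusted p = 0.0452), but r was 0.371 (permutation p = 0.0586, adjusted p = 0.195) without tumors 1 and 11, so that its call rests on those tumors. The LS tumors hold neither, and r was 0.558 in LS Cy5 and -0.385 in LS Cy3 tumors (n = 8 each). Over all LS tumors it was 0.311 (permutation adjusted p = 0.594). With probe 11044 it had r = 0.376 (permutation p = 0.0632, adjusted p = 0.158) and rho = 0.207 (permutation p = 0.290, adjusted p = 0.502). The 2 NR3C1 probes had r = 0.03 (permutation p = 0.864, adjusted p = 0.864) and rho = 0.06 (permutation p = 0.764, adjusted p = 0.764). Over the array, 4187 pairs of probes with the same symbol had a median r of 0.418 with quartiles of 0.0812 and 0.790, and these values are given across probes, which are not independent replicates.

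The remaining pairs missed the threshold. NCOR1 probe 15421 with NR3C1 probe 3922 had r = 0.345 (permutation adjusted p = 0.165), and NCOR1 probe 11044 with NR3C1 probe 3922 had r = 0.181 (permutation adjusted p = 0.430). NR3C1 probe 15797 had r = -0.206 with NCOR1 probe 11044, r = -0.214 with probe 13277 and r = -0.232 with probe 15421 (permutation adjusted p = 0.328 for each). With each gene taken as the mean of its probes, a choice made after the values were seen, NCOR1 and NR3C1 had r = 0.381 (permutation p = 0.0588) and rho = 0.370 (permutation p = 0.064).

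**Figure D3:**
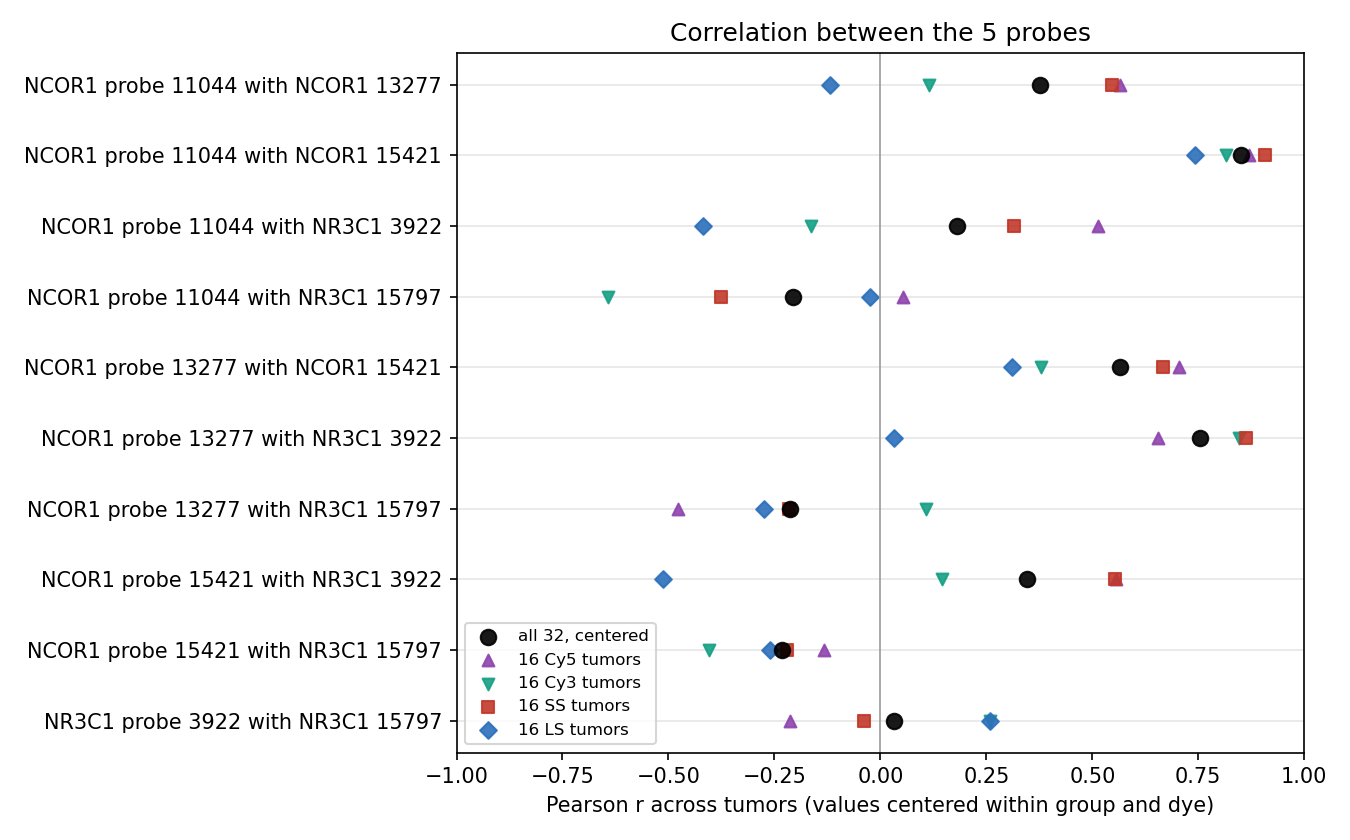
Pearson r for each of the 10 pairs of probes, on values centered within survival group and dye, over all 32 tumors (black) and over the 16 Cy5, Cy3, SS or LS tumors alone. NCOR1 probes 11044 and 15421 stay between 0.742 and 0.908 in every subset, whereas NCOR1 probe 13277 with NR3C1 probe 3922 reaches 0.862 in SS and 0.0312 in LS tumors.

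Among 22170 other probes, NR3C1 probe 3922 ranked 15 by its r with NCOR1 probe 13277, and NCOR1 probe 13277 ranked 14 by its r with NR3C1 probe 3922. The middle 95% of all probes lay between -0.457 and 0.477 for the NCOR1 probe and between -0.428 and 0.446 for the NR3C1 probe. Of the 200 probes most like each, 105 were shared, 52.5% of either list. NCOR1 probes 11044 and 15421 shared 107 (53.5%), NR3C1 probe 3922 shared 34 (17%) with NCOR1 probe 15421 and 17 (8.5%) with probe 11044, NCOR1 probe 13277 shared 32 (16%) with 15421 and 19 (9.5%) with 11044, and NR3C1 probe 15797 shared 0 with any of the other probes. The largest overlaps were thus those of NCOR1 probe 13277 with NR3C1 probe 3922 and of the other NCOR1 probes with each other, with smaller overlaps between these pairs. These ranks and shares are descriptions over the 32 tumors, and 2 probes that correlate share neighbors by construction.

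The named genes most like NCOR1 probe 13277 were ANKRD11 (r = 0.872), a chromatin regulator with ankyrin repeats that binds coactivators, SRRM1 (r = 0.865), a splicing coactivator with serine and arginine repeats, and PHACTR2 (r = 0.850), a regulator of phosphatase and actin. Those most like NR3C1 probe 3922 were WNK1 (r = 0.842), a kinase of ion transport, SRPK2 (r = 0.842), a kinase that phosphorylates splicing factors, and SRRM1 again (r = 0.836). ANKRD11, SRRM1 and WNK1 are also genes that the study picked on these arrays by their SS to LS difference.

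As for NCOR1 and NR3C1, other probes of these genes differed in how far they shared the pattern. The second SRRM1 probe had r = 0.05 with NCOR1 probe 13277 and r = -0.08 with NR3C1 probe 3922. The second PHACTR2 probe had r = 0.09 with the NCOR1 probe, and the second WNK1 probe had r = -0.06 with the NR3C1 probe. The 3 other SRPK2 probes had 0.185, 0.428 and 0.669 with the NR3C1 probe. For SRRM1, PHACTR2 and WNK1 the likeness held for 1 of 2 probes, whereas 1 further SRPK2 probe lay above the middle 95% of all probes. ANKRD11 had a single probe. Among named genes the lowest r was -0.685 for VWA2, an extracellular matrix protein, with the NCOR1 probe and -0.716 for BOD1, a protein of chromosome alignment in mitosis, with the NR3C1 probe.

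**Figure D4:**
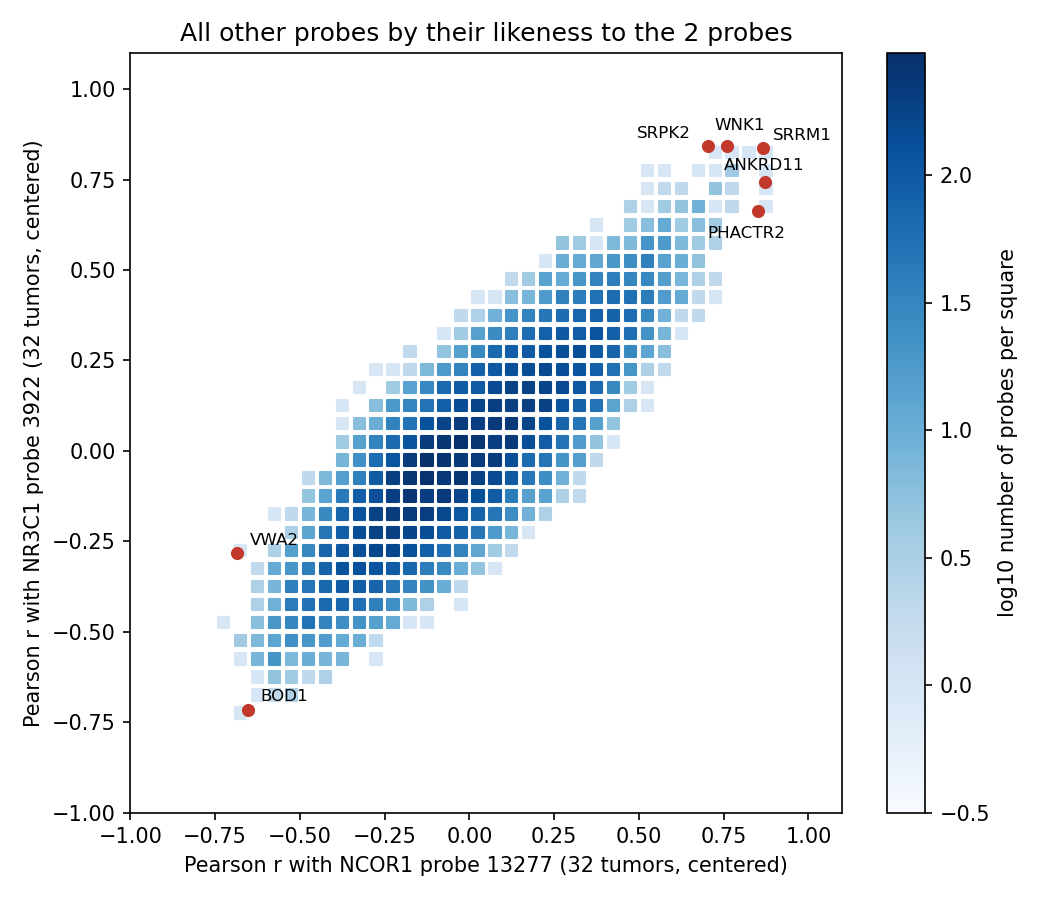
Pearson r with NCOR1 probe 13277 (horizontal) and with NR3C1 probe 3922 (vertical) for all other probes outside both genes, as counts per square on a log10 color scale, over 32 tumors with values centered within survival group and dye. The cloud is stretched along the diagonal because the 2 probes correlate at 0.754, and SRRM1 stands at its upper end with 0.865 and 0.836.

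The genes most like the other probes were different ones. NCOR1 probe 11044 was most like RPL26 (r = 0.703), a protein of the large ribosomal subunit, SPCS2 (r = 0.668), a subunit of the signal peptidase, and BRCA2 (r = 0.646), which acts in DNA repair, and least like ME1 (r = -0.773), the cytosolic malic enzyme. NCOR1 probe 15421 was most like CYBB (r = 0.704), the phagocyte oxidase subunit, USP9X (r = 0.680), a deubiquitinase, and FAM204A (r = 0.652), and least like RARB (r = -0.721), a retinoic acid receptor. All 6 further USP9X probes also correlated positively with it, between 0.364 and 0.653, but the second RARB probe had r = -0.07. With NCOR1 probe 11044 the second RPL26 probe had r = 0.592 and the second SPCS2 probe r = 0.256. NR3C1 probe 15797 was most like CRYL1 (r = 0.678), a lambda crystallin, CUBN (r = 0.646), the receptor cubilin, and LRRC4C (r = 0.633), a membrane protein of neurons, and least like STARD4 (r = -0.691), a sterol carrier. The other CUBN probes had r = 0.0831 and r = 0.295 with this NR3C1 probe.

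Genes next to NCOR1 and NR3C1 in the genome, within 12 protein-coding genes to either side in the dog assembly UU_Cfam_GSD_1.0, were examined after values were seen. The 6 probes of 5 measured NCOR1 neighbors, such as ZSWIM7 and MFAP4, had r between -0.07 and 0.307 with NCOR1 probe 13277, with a median of 0.04. The 7 probes of 7 NR3C1 neighbors, such as NDFIP1 and FGF1, had r between -0.148 and 0.337 with NR3C1 probe 3922, with a median of 0.141. All of these lie inside the middle 95% of all probes.

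Genes that act with NCOR1 and NR3C1 were compared between SS and LS in 8 lists of 158 genes, of which 66 genes with 92 probes were measured. Limma without a covariate called 0 of these 92 probes at an adjusted p under 0.10, as it called 0 of all 22176 probes (0%), and with the orientation as a block it again called 0 of the 92, against 0.424% of all probes. At an unadjusted p under 0.05 it had 8 of 92 probes (8.7%) against 7.13% of all probes, 6 of them higher and 2 lower in SS. Within the Cy5 tumors alone 4 of the 92 probes were called, against 5.91% of all probes, and within the Cy3 tumors alone 5 were called, against 9.6%. Over the 92 probes the median difference was 0.05 and 56 were higher in SS, beside a median of 0.00 and 49.8% higher over all probes.

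Of the corepressor complex that NCOR1 forms, HDAC3 was the 1 gene of 6 measured, and its probe differed by -0.12 (SE 0.09, limma adjusted p = 0.822). Among other histone deacetylases and partners of SIN3, 3 of 14 genes were measured. SAP18, a subunit of the SIN3 complex, averaged 0.12 ± 0.44 in SS and -0.26 ± 0.22 in LS (SD, n = 16 each), a difference of 0.38 (SE 0.12, unadjusted p = 0.00353 and adjusted p = 0.53 by limma). It did not follow the 2 leading probes across tumors, with r = -0.235 for NCOR1 probe 13277 and r = -0.427 for NR3C1 probe 3922. The deacetylases HDAC1 and HDAC2 differed by -0.11 and 0.32, with SEs of 0.12 and 0.73.

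The chaperones of the glucocorticoid receptor held most of the unadjusted calls. Of 23 probes for 13 of 18 genes, 18 were higher in SS, with a median difference of 0.10, and 5 had an unadjusted p under 0.05, all higher, against 3.63% of all probes in that direction. HSP90AA1, the inducible HSP90 that holds the receptor ready for ligand, averaged 0.04 ± 0.96 in SS and -0.99 ± 0.89 in LS at its probe with the smallest p (SD, n = 16 each). That is a difference of 1.03 (SE 0.32, limma adjusted p = 0.492, and 0.162 with the block), and its other probes differed by 0.57 and 0.39. HSP90AA1 is among the genes that the study picked on these arrays, so its direction is no independent evidence, and its 3 probes make up 3 of the 5.

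The remaining chaperones varied less. HSPA4, a member of the HSP70 family, differed by 0.28 (SE 0.12, limma adjusted p = 0.639). AHSA1, the activator of the HSP90 ATPase, differed by 0.29 (SE 0.14, limma adjusted p = 0.678). Of genes named for their role after values were seen, FKBP4, the immunophilin that helps the receptor into the nucleus, had 3 probes at 0.25, 0.09 and 0.00, and the 4 probes of HSP90AB1, the constitutive HSP90, lay between -0.04 and 0.35. Across tumors the HSP90AA1 probe of smallest p had r = 0.436 with NCOR1 probe 13277 and r = 0.270 with NR3C1 probe 3922. The other HSP90AA1 probes had -0.04 and -0.127 with the NCOR1 probe and -0.237 and -0.277 with the NR3C1 probe. The list's median r was -0.141 with the NCOR1 probe and -0.186 with the NR3C1 probe.

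Coactivators and other nuclear receptors showed small differences. Of 18 coactivator probes 13 were higher in SS, with a median of 0.05, and those with the smallest p were NCOA6 (0.13), SMARCA2 (-0.16), an ATPase of SWI/SNF, and MED1 (0.19), a subunit of Mediator. Of 20 probes of other nuclear receptors 8 were higher, with a median of -0.03, and NR4A2 (-0.13), THRA (-0.09), a thyroid hormone receptor, and NR1D2 (-0.30), a repressor of the circadian clock, had the smallest p. Their limma adjusted p lay between 0.725 and 0.812, and 0 of the 38 probes had an unadjusted p under 0.05.

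Target genes of the glucocorticoid receptor differed in both directions, and their lists were not tested as groups. Of 18 probes of glucocorticoid-induced genes 11 were higher in SS, with a median difference of 0.05. MT2A, a metallothionein, was the gene with unadjusted calls, and they were in the lower direction, against 3.5% of all probes. It averaged -0.36 ± 0.44 in SS and 0.11 ± 0.62 in LS (SD, n = 16 each), a difference of -0.47 (SE 0.19, limma adjusted p = 0.609), and its second probe differed by -0.41. CDKN1A, an inhibitor of the cell cycle, differed by -0.37 (limma adjusted p = 0.728) and CD163, a scavenger receptor of macrophages, by 0.29 (limma adjusted p = 0.747). FKBP5 and TSC22D3, classic targets of the receptor, differed by 0.11 (SE 0.20) and 0.20 (SE 0.26), and were picked for that role after values were seen.

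Genes repressed by glucocorticoids had 5 probes, 3 of them higher, with a median of 0.03. NOS2, the inducible nitric oxide synthase, differed by -0.13, SPP1, osteopontin, by 0.51 with an SE of 0.65, and CSF2, a growth factor of myeloid cells, by -0.13. The 4 probes of glucocorticoid metabolism included HSD11B1, which regenerates cortisol, at -0.02 (SE 0.13, limma adjusted p = 0.977), H6PD, which supplies its cofactor, at 0.14, and SRD5A1, a steroid reductase, at -0.11.

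**Figure D5:**
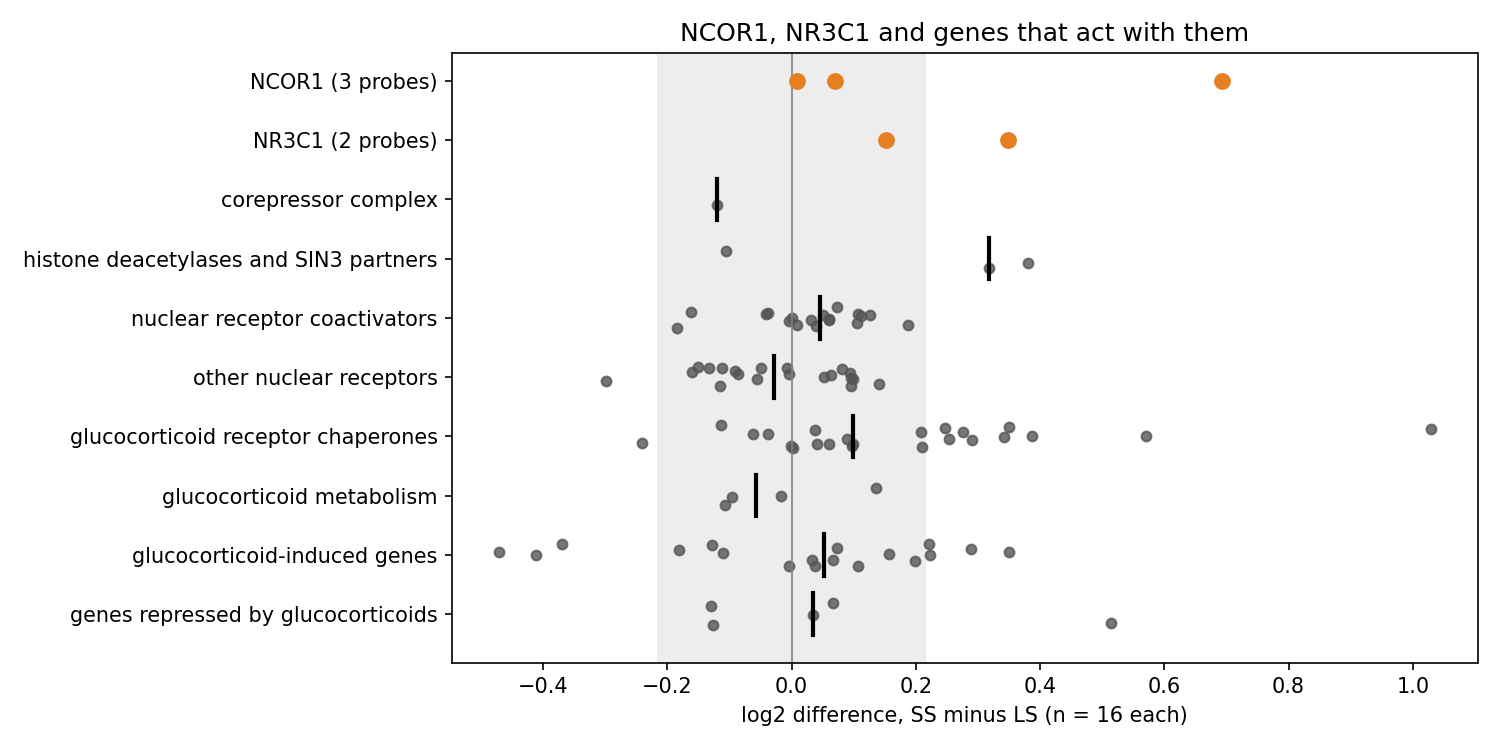
Log2 difference SS minus LS (n = 16 each) of each probe of NCOR1 and NR3C1 (orange) and of the 8 lists of related genes (gray, 1 point per probe, with the median as a black bar), with 1 SD of all probes to either side of 0 shaded. NCOR1 probe 13277 at 0.69 lies beyond all list probes except HSP90AA1 at 1.03.

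Markers of other cell types were set beside these values, as counts of probes higher or lower in SS without a test of any list. All 9 macrophage probes were higher in SS, with a median difference of 0.21, and their mean level ranged from -1.07 to 1.89 in SS tumors and from -0.95 to 0.79 in LS tumors. Of 21 skeletal muscle probes 20 were lower in SS, with a median of -0.28 and mean levels from -0.67 to 1.15 in SS tumors and from -0.76 to 1.58 in LS tumors. Of 11 osteoblast probes 9 were lower, with a median of -0.41 and mean levels from -2.01 to 0.89 in SS and from -3.39 to 1.29 in LS tumors. All 3 osteoclast probes were higher, with a median of 0.45, and all 5 chondrocyte probes were lower, with a median of -0.32. Of 4 lymphocyte probes 1 was higher (median -0.06), and of 10 endothelial probes 4 were higher (median -0.16). Limma called 0 of the probes of these lists at an adjusted p under 0.10. At an unadjusted p under 0.05 it had 2 of 21 muscle probes, both lower in SS, and 1 of 11 osteoblast probes, PHEX, which was higher in SS by 0.31 against the direction of most of its list, beside 7.13% of all probes. Probes of 1 gene repeat within these lists, such as SPARC with 5 of the osteoblast probes.

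Across tumors the macrophage probes had a median r of 0.316 with NCOR1 probe 13277 and 0.241 with NR3C1 probe 3922. The muscle probes had a median r of 0.00 with both. The osteoblast probes had medians of -0.07 with the NCOR1 probe and -0.10 with the NR3C1 probe. For 10 endothelial probes the median was 0.378 with NCOR1 probe 13277 and 0.133 with NR3C1 probe 3922, and for 3 osteoclast probes it was -0.256 and -0.188. Chondrocyte markers (5 probes) had 0.155 and 0.226, and lymphocyte markers (4 probes) had 0.05 and 0.07. The other NCOR1 probes, 11044 and 15421, had medians of 0.343 and 0.335 with macrophage probes and -0.349 and -0.315 with osteoblast probes. With osteoclast probes they had -0.421 and -0.365, and with endothelial probes -0.03 and 0.04. They had -0.214 and -0.226 with chondrocyte, 0.209 and 0.179 with lymphocyte and 0.05 and 0.03 with muscle probes. The part of cell types in the differences and correlations of NCOR1 and NR3C1 was not tested.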

How the data were processed

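Per the methods, the authors removed defective spots by flags and normalized by Lowess per print tip, took logarithms, and turned round the arrays with swapped dyes. The deposited values, read here as log2 ratios of tumor over pool, cover 22176 probes on 32 arrays with 5 missing values, 0 of them at NCOR1 or NR3C1. The log base and the image software are not given in the sources used here, so a fold rests on base 2. The direction rests on the stated switch, and results are also given with the sign of the Cy3 tumors turned. The platform annotation named 7694 probes with 1 symbol and 0 with several, and 14482 are unnamed here. Through gene identifiers 7340 were matched to RefSeq names (UU_Cfam_GSD_1.0), which changed 0 symbols.

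SS, LS and the tumor dye came from the labels. Differences were fitted over all probes with limma 3.58.1 in R 4.3.3 (lmFit, eBayes, two-sided) without a covariate, orientation and interaction in a model with both factors, and p-values were adjusted by Benjamini-Hochberg across the whole table, with calls under 0.10. The fits were tested on simulated data. Correlations used values centered within survival group and orientation and 100000 permutations in numpy 2.4.6 under Python 3.11.15. Likeness is Pearson r with every other probe without missing values. Named are all NCOR1 and NR3C1 probes, for each the 3 named genes with the highest r and the 1 with the lowest, and up to 3 genes per list, taken by p. A gene with several probes is given by the one of smallest p or highest r unless stated. The probes, lists and tests were chosen with earlier results of these data known. Signal over background was not analysed here, and the number of arrays limits the precision. The authors' quantitative PCR was not used here.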

Additional observations from a re-analysis of the deposited data

Results flagged for a closer look

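Of the 20 sets of 8 tumors that share a probe, a survival group and a dye, 2 held a tumor far from the others by Dixon's ratio, and chance alone flags about 1 in 20. Both were tumor 26, an LS tumor labeled with Cy3. At NCOR1 probe 15421 it lay at -0.324, with the nearest tumor at -0.01, a gap of 0.543 of the whole range. At NR3C1 probe 15797 it lay at 0.575, with the nearest tumor at 0.215, a gap of 0.586 of the range. Without tumor 26 the SS minus LS difference of NR3C1 probe 15797 was 0.19, against 0.15 with it.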

How the results depend on the processing

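No paired analysis was possible because the SS and LS tumors came from different dogs. The difference of NCOR1 probe 13277 stayed between 0.34 (sign of the Cy3 tumors turned) and 1.03 (Cy5 tumors), with 0.35 among Cy3 tumors and 0.52 as a difference of medians. That of NR3C1 probe 3922 stayed between 0.30 and 0.41, except 0.01 with the sign turned and 0.25 as the mean of both its probes. The mean of the 3 NCOR1 probes differed by 0.26. Over the leave-one-out fits the difference lay between 0.63 (without tumor 11) and 0.76 (without tumor 1) for NCOR1 probe 13277, -0.02 and 0.06 for 11044, 0.03 and 0.10 for 15421, 0.30 and 0.40 for NR3C1 probe 3922, and 0.10 and 0.19 for 15797. NCOR1 probe 11044 was also -0.08 as a difference of medians, and NR3C1 probe 15797 was -0.13 with the sign turned. The dye difference lay between -0.26 and -0.17 for NCOR1 probe 11044, -0.17 and -0.05 for 13277, -0.01 and 0.06 for 15421, 0.26 and 0.35 for NR3C1 probe 3922 and -0.53 and -0.47 for 15797. With the sign turned it was 0.0262 for NCOR1 probe 11044, -0.0465 for NR3C1 probe 3922 and 0.133 for 15797, which by construction is the sum of the orientation means and not their gap. The interaction lay between -0.02 and 0.16, 0.58 and 0.84, 0.22 and 0.37, -0.07 and 0.14, and -0.34 and -0.21 for NCOR1 probes 11044, 13277 and 15421 and NR3C1 probes 3922 and 15797 in turn, with no call gained. Correlations that lost their call were NCOR1 probes 13277 and 15421 (0.380 in Cy3, 0.311 in LS, 0.371 without tumors 1 and 11) and NCOR1 probe 13277 with NR3C1 probe 3922 (0.0312 in LS, and by rho 0.279 in Cy5). By rho NCOR1 probes 11044 and 15421 also lost it in LS (0.459), as did 13277 and 15421 in Cy5 (0.591). Those that gained one were NCOR1 probes 11044 and 13277 (0.565 in Cy5, 0.547 in SS), NCOR1 probe 11044 with NR3C1 probe 15797 (-0.643 in Cy3), NCOR1 probe 13277 with NR3C1 probe 15797 (-0.478 in Cy5), and NCOR1 probe 15421 with NR3C1 probe 3922 (0.361 centered within orientation only, 0.554 in SS). By rho alone the NR3C1 probes 3922 and 15797 gained one with each other when values were not centered (-0.372, permutation adjusted p = 0.0922). The subsets have 16 tumors each, and SS or LS alone and the means over probes were chosen after seeing the data. Among the 92 pathway probes the calls were 4 in Cy5, 5 in Cy3, 5 with the sign turned and 8 unadjusted, against 0. By Spearman's rho, NCOR1 probes 11044 and 15421 and NR3C1 probe 15797 each kept 1 of their 3 most similar genes, and 15797 kept 1 when centered within orientation only. The cause of these changes was not tested.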
